A study of Mus musculus with 92 samples.

Results

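Myosin heavy chains are the motor proteins of the thick filament, and the isoform a fibre makes is the classic basis of its type. The 7 genes described here were chosen by name: Myh7, Myh2, Myh1 and Myh4, which mark the slow and the fast adult fibres; Myh3 and Myh8, the embryonic and perinatal chains; and Myh13, the extraocular chain. All 7 were present among the 13441 genes of the table. They were selected with their levels, the shapes of their distributions and their covariation in these same animals already known. Levels and correlations among them are therefore given as a description, and the associations with other genes below are not independent evidence.

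The samples were quadriceps muscles of 92 mice of the DOz stock, 1 sample per animal, all in 1 group. DOz mice are outbred, so every animal carries its own mixture of founder alleles. The animals were about 18 to 20 weeks old and had eaten only standard rodent chow, and RNA libraries were made with a kit for polyadenylated RNA from 500 ng of RNA each. The labels give no genotype, sex or second treatment, so the only contrast available was that between animals.

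The slow chain Myh7 defines type I fibres, Myh2 type IIA, Myh1 type IIX and Myh4 type IIB, in order from oxidative and fatigue-resistant to glycolytic and fast. Mouse quadriceps is a mostly fast muscle. Myh3 and Myh8 are made in the embryo and around birth, are switched off as muscle matures and come back during regeneration, and Myh13 is otherwise known from eye and laryngeal muscles. Except for Myh7, all of these genes stand in 1 cluster on mouse chromosome 11, and every one of them is read on the same strand. In these coordinates (GENCODE M21, build GRCm38, which is mm10) the cluster runs from Myh3 at chr11:67078300-67102291 through Myh2 at chr11:67171027-67197517, Myh1 at chr11:67200052-67224575, Myh4 at chr11:67238029-67260446 and Myh8 at chr11:67277124-67308634 to Myh13 at chr11:67321658-67371586. Myh7 lies on the minus strand of chromosome 14 at chr14:54970684-54994626, beside the cardiac gene Myh6.

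How well short reads tell these genes apart bears on every value below. Over their coding sequences Myh1 and Myh2 were 91.1% identical and Myh1 and Myh4 90.2%, whereas Myh13 matched the other 6 members at 76.2% to 79.8% of aligned bases. Of the different 31-base words in the transcripts of Myh1, 37.8% also occurred in another member, in Myh6 or in Myh7b. The same share was 32.8% for Myh2, 30.4% for Myh4, 22.7% for Myh7, 16.9% for Myh8, 13.4% for Myh13 and 10.6% for Myh3. For Myh7 nearly all of it was shared with Myh6, which is not a member, and for the others the closest partner was always a member. Reads from such shared stretches have to be divided between genes by estimation, so small values of one myosin beside large values of a close copy are uncertain. The stretch of the Myh4 coding sequence in which the members were least alike shows what separates them. It covers coding bases 1846 to 1905 of Myh4 and leads into the surface loop of the motor domain that touches actin. Capitals mark bases that differ from Myh4 at the aligned position, or that Myh4 lacks; the coordinates span the intron that falls inside each stretch.
Myh4 (chr11:67248704-67249233, plus strand): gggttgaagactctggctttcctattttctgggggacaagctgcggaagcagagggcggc
Myh1 (chr11:67209111-67209270, plus strand): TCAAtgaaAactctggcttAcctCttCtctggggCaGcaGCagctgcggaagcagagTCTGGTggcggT
Myh2 (chr11:67181293-67181993, plus strand): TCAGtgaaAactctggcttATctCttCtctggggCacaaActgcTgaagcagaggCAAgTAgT
Myh8 (chr11:67289785-67289947, plus strand): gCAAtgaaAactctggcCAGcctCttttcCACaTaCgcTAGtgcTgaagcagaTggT
Myh13 (chr11:67342499-67344815, plus strand): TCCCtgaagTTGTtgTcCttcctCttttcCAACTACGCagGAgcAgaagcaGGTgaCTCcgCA
Myh7 (chr14:54986933-54987272, minus strand): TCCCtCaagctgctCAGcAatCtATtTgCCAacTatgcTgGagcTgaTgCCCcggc
Myh3 (chr11:67089076-67089245, plus strand): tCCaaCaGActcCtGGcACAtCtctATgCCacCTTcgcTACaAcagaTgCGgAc
In this window Myh1 kept 83.3% of the Myh4 bases and Myh2 75%, against 63.3% for Myh8, 53.3% for both Myh13 and Myh7, and 45% for Myh3. The opposite case is the longest run of bases that Myh1, Myh2 and Myh4 share without any difference, 140 bases of exons 14 and 15 in which a read cannot be assigned to 1 of the 3 adult fast genes.
Myh4, Myh1 and Myh2 shared stretch (Myh4 copy, chr11:67246503-67248546, plus strand): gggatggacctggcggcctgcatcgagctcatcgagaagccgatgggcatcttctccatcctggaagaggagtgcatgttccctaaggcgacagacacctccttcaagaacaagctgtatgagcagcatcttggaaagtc
The sequences are those of the reference transcripts; the alleles of these animals were not read.

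The adult fast chains made up nearly all of the myosin heavy chain RNA. Myh4 had a log2 level, on the per-million scale of the table, of 15.90 ± 0.24 (SD, n = 92), with a lowest animal at 14.96, a median of 15.91 and a highest animal at 16.41. Myh1 stood at 12.39 ± 0.41 (SD, n = 92), from 11.58 through a median of 12.38 to 13.65. Myh2 stood at 11.14 ± 0.49 (SD, n = 92), from 10.12 through 11.21 to 12.37. These 3 genes had no break in their distributions and differed between the extreme animals by factors of 2.75 for Myh4, 4.2 for Myh1 and 4.77 for Myh2.

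The other members were far lower and far more variable. Perinatal Myh8 ranged from 3.45 to 9.71 with a median of 8.03, and embryonic Myh3 from 2.86 to 8.35 with a median of 4.15. Slow Myh7 ranged from 0.51 to 8.41 with a median of 4.65, a 239-fold difference between the extreme animals. Extraocular Myh13 ranged from 1.28 to 11.57 with a median of 2.75, a 1250-fold difference. Ranked by SD among the 11116 genes with a mean log2 level of at least 1, Myh13 was number 5, Myh8 number 23, Myh7 number 28 and Myh3 number 73, while Myh2 was number 1617, Myh1 number 2640 and Myh4 number 6975. The plot of levels by animal shows both kinds of gene side by side.

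**Figure D1:**
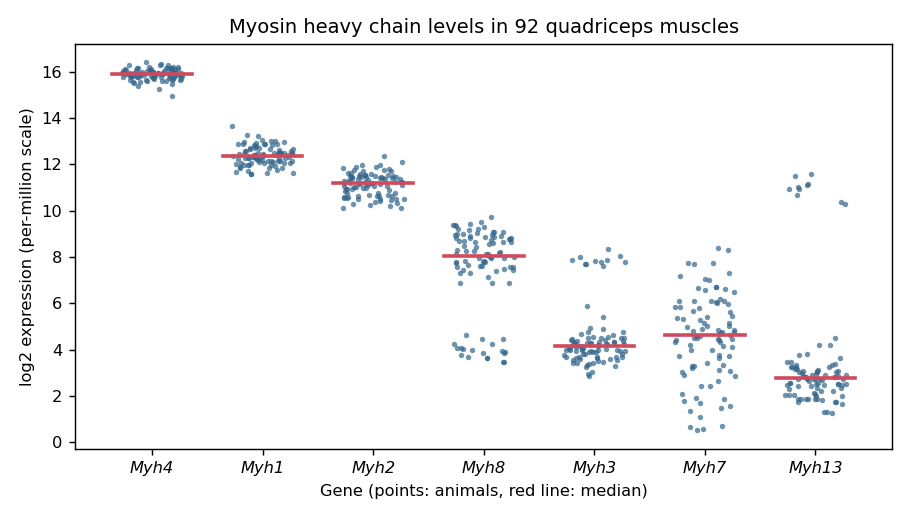
Log2 expression (vertical axis, per-million scale) of the 7 myosin heavy chain genes; each point is 1 of 92 animals and the red line is the median. Myh4, Myh1 and Myh2 each form 1 compact band, Myh7 is spread without a gap from 0.51 to 8.41, and Myh8, Myh3 and Myh13 each fall on 2 sides of an empty interval.

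Divided by the length of each gene's merged exons, Myh4 held a median of 89.5% of the summed myosin heavy chain level, with animals between 74.8% and 94.6%. The median share was 6.98% for Myh1 (3.91% to 19%) and 2.86% for Myh2 (1.40% to 8.83%). The developmental and slow chains were minor in a typical animal, at 0.179% for Myh8, 0.0250% for Myh7, 0.0248% for Myh3 and 0.0096% for Myh13. Myh13 nevertheless reached 5.33% in its highest animal, and it ranked 3rd, ahead of Myh2, in 4 animals, where Myh2 ranked 3rd in the other 88. Per length, Myh4 exceeded Myh1, Myh1 exceeded Myh2 and Myh2 exceeded Myh8 in each of the 92 animals. The order below that did not hold from animal to animal: Myh8 was above Myh3 in 66 and below it in 26, Myh3 above Myh7 in 51 and below it in 41, and Myh7 above Myh13 in 66 and below it in 26. The differences of neighbours were 1.99 ± 1.84, 0.48 ± 2.11 and 0.50 ± 3.14 (log2 per kilobase, SD over 92 animals), so Myh3, Myh7 and Myh13 were not ordered beyond their spread. With the length of the longest coding transcript instead, Myh8 was below Myh3 in 7 animals, Myh3 below Myh7 in 50 and Myh7 below Myh13 in 23. Together the 7 genes took between 4.83% and 10.2% of the summed expression of a sample, with a median of 7.01%. The share of Myh8 rests on its annotated length of 11772 bases, against 6149 for its longest coding transcript, and became 0.339% with the shorter length.

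The labelled tissue was checked against marker genes. The 10 skeletal muscle markers, among them Acta1, Ckm and Ttn, summed to between 6.88% and 9.39% of expression, and the 16 fast fibre markers to between 9.18% and 14.4%. The 14 measured slow fibre markers summed to between 0.00855% and 0.184%. Markers of other cell types were present in every list: adipocyte markers at 0.0342% to 0.304%, macrophage markers at 0.0043% to 0.065%, fibroblast markers at 0.0442% to 0.255% and blood markers at 0.0172% to 2.55%. The numbers in the sample titles fall into 5 runs of 33, 14, 21, 11 and 13 animals, whose meaning the labels do not give. Of all genes, 2 (0.0149%) differed between the runs in limma's F test, neither of them a member, and for the members the adjusted p lay between 0.727 and 0.958. In bulk RNA, fewer fibres of a type and less RNA per fibre cannot be told apart, and this holds for every level given here.

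Myh13, Myh8 and Myh3 each had an empty interval in the middle of their range, and the animals on the far side were different animals for each gene. With the animals sorted by level, a gap was counted where consecutive values were 1 or more apart and neither side held fewer than 5 animals. Myh13 had a gap of 5.79 on the log2 scale: 82 animals lay between 1.28 and 4.49 with a median of 2.72, and 10 lay between 10.28 and 11.57 with a median of 10.99. Myh8 had a gap of 2.25 the other way round, with 19 animals between 3.45 and 4.62 and the larger set of 73 between 6.87 and 9.71. Their medians were 3.96 and 8.45. Myh3 had a gap of 1.72, with 81 animals between 2.86 and 5.90 and 11 between 7.62 and 8.35, at medians of 4.03 and 7.84. Myh7 varied over a wider range than Myh3 or Myh8 but had no such break. Its widest step with at least 5 animals on each side was 0.41.

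The 3 sets did not overlap. They are small, and whether unrelated sets of these sizes would overlap more was not tested. Of the 92 animals, 52 had the usual side of all 3 genes, 19 had low Myh8 alone, 11 had high Myh3 alone and 10 had high Myh13 alone. The 10 animals high in Myh13 had Myh8 between 8.70 and 9.51, and the 11 high in Myh3 had Myh8 between 8.58 and 9.38, all above the Myh8 gap. Most other animals lay above that gap too: 63 of the 82 below the Myh13 gap and 62 of the 81 below the Myh3 gap. Conversely, the 19 animals low in Myh8 had Myh13 no higher than 2.75 and Myh3 no higher than 4.74. Ranges of the adult members overlapped between the sides: Myh4 ran from 15.53 to 16.12 in the animals high in Myh13 and from 14.96 to 16.41 in the others. In the animals low in Myh8, Myh2 ran from 10.12 to 11.81 with a median of 10.65, against 10.20 to 12.37 with a median of 11.29 in the rest. The sides were defined by these values, so no test of 1 side against the other was made. Slopes over all animals on these 3 genes, given below, carry much of the same contrast. Animals high in Myh13 numbered 5, 1, 3, 1 and 0 in the 5 runs of title numbers, and animals high in Myh3 numbered 3, 2, 4, 1 and 1.

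**Figure D2:**
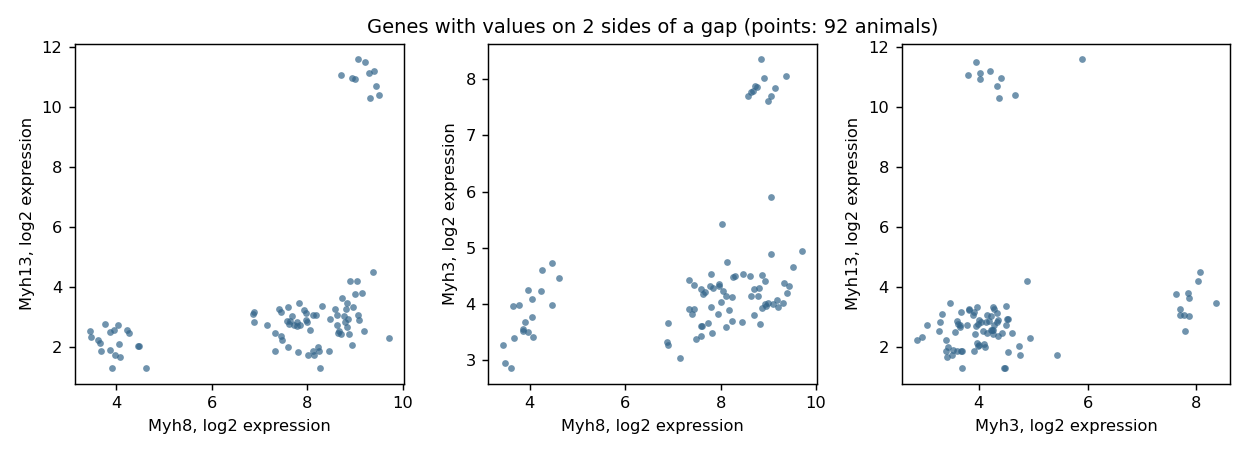
Log2 levels of Myh13 against Myh8, Myh3 against Myh8, and Myh13 against Myh3, with 1 point for each of 92 animals. The 10 animals above the Myh13 gap and the 11 above the Myh3 gap are different animals, and all 21 of them lie above the Myh8 gap. Of all 92 animals, 73 lie above the Myh8 gap.

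The 150 reference bases before the annotated start of each of these 3 genes, and of Myh4 for comparison, are shown because the 3 differ in level by a step between animals while lying in 1 cluster with genes that do not. They come from RefSeq (GRCm38.p6). Capitals mark matches, on either strand, to the E-box CANNTG bound by myogenic factors, the TATA box TATAAA and the M-CAT element CATTCC.
Myh4 (chr11:67237662-67237811, plus strand): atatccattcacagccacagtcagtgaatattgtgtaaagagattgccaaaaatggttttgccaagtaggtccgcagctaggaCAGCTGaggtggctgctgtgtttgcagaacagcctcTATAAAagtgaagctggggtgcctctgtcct
Myh3 (chr11:67078150-67078299, plus strand): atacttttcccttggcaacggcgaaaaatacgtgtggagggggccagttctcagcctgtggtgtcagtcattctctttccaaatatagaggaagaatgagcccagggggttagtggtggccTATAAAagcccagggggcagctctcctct
Myh8 (chr11:67276974-67277123, plus strand): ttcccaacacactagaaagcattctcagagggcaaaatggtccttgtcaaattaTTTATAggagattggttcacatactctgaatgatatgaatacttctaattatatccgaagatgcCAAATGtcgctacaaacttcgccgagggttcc
Myh13 (chr11:67326953-67327102, plus strand): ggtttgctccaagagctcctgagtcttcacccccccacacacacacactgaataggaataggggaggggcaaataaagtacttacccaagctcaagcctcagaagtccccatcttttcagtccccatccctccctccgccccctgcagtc
Myh3 and Myh4 each held a TATA box, 29 and 31 bases before the start, and Myh4 also an E-box. Myh8 held a TATA box on the other strand at 96 bases and 1 E-box, and Myh13 held none of the 3 letter strings. Among 32851 mouse promoters of the same length, 47.7% held an E-box, 7.57% the TATA letters and 7.59% the M-CAT letters. A match describes the letters alone, and differences between founder alleles in these windows were not analysed here. The RefSeq start of Myh13 used here lies inside the GENCODE gene.

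Among the adult chains, Myh7 with Myh2 and Myh2 with Myh1 were positively correlated, while Myh4 was weakly negative with each of the other 3. Across 92 animals Myh7 and Myh2 had r = 0.400 (Spearman rho = 0.415), and Myh2 and Myh1 had r = 0.463 (rho = 0.463). Myh7 and Myh1 had r = 0.0644. Against Myh4 the values were negative, at r = -0.194 for Myh7, -0.192 for Myh2 and -0.213 for Myh1. Leaving out the 2 animals farthest from the median gave 0.403 for Myh7 with Myh2, 0.494 for Myh2 with Myh1, -0.309 for Myh7 with Myh4 and -0.162 for Myh1 with Myh4. Within the 5 runs of title numbers, Myh7 with Myh2 lay between 0.113 and 0.724, and Myh2 with Myh1 between -0.039 and 0.685, with 4 of 5 runs positive. These are descriptions of the same libraries and share their scaling and the division of reads between close copies.

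**Figure D3:**
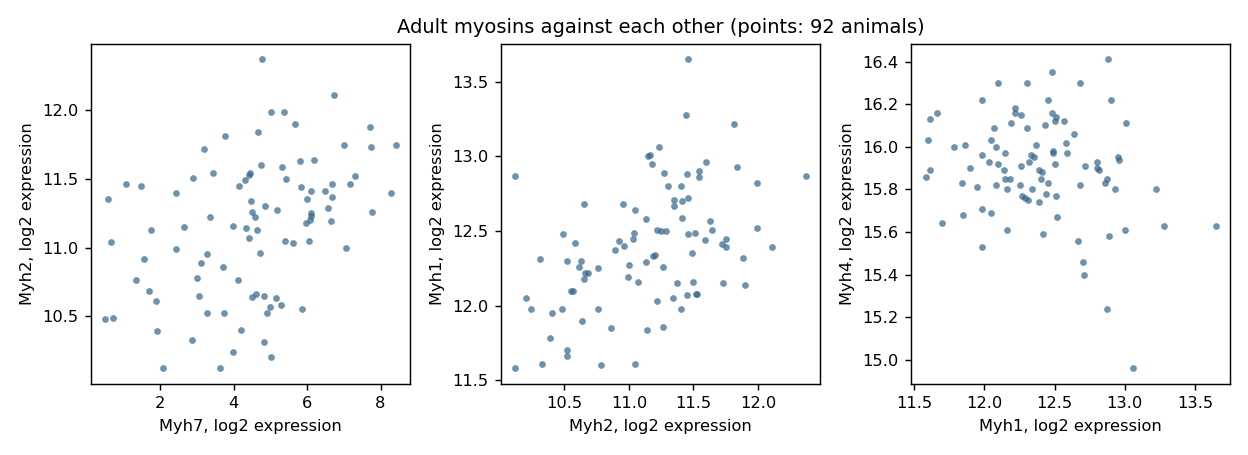
Log2 levels of Myh2 against Myh7, Myh1 against Myh2, and Myh4 against Myh1, with 1 point for each of 92 animals. The first pairs rise together (r = 0.400 and 0.463), and the last shows a weak negative slope (r = -0.213).

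For the genes with a gap, a correlation over all animals would mostly restate the sides, so it was taken within the larger set. There Myh2 was positively correlated with the developmental chains and with Myh13: r was 0.463 with Myh3 (81 animals), 0.483 with Myh8 (73 animals) and 0.476 with Myh13 (82 animals), positive in all 5 runs each time. For Myh1, r was 0.462 with Myh3, -0.0494 with Myh8 and -0.0247 with Myh13. Myh3 and Myh8 had r = 0.448 over the 62 animals in both larger sets, but the runs lay between -0.632 and 0.606. Myh8 and Myh13 had r = 0.232 over 63 animals. Some 10.1% of the 31-base words of Myh8 also occur in Myh2, and 8.59% of those of Myh13 in Myh8. The part of shared reads in these values was not tested.

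Slow myosin Myh7 was followed by a short list of 23 genes, with slow troponins, light chains and tropomyosin at its head. A slope here is the log2 change per SD of the myosin, fitted with limma over 13440 genes, and a gene is called at a Benjamini-Hochberg adjusted p under 0.05. A member that passes with another member is counted. The covariation of members was known when they were chosen, so such a call is a description and not a test. With Myh7, 22 genes rose (0.164% of those tested), the member Myh2 among them, and 1 fell (0.00744%). Tnnc1, the slow and cardiac troponin C, had the steepest slope at 1.59 ± 0.067 (SE, adjusted p = 1.83e-37) and the most similar pattern (rho = 0.940). It lay at -1.51 in its lowest animal, 2.17 at the median and 6.09 in the highest. The slow troponins Tnnt1 (1.36 ± 0.071) and Tnni1 (1.44 ± 0.092) rose nearly as steeply. The slow ventricular light chain Myl2 rose by 1.22 ± 0.081 and the slow tropomyosin Tpm3 by 0.97 ± 0.057. These 4 had adjusted p between 2.48e-30 and 2.1e-23. Of 14 slow fibre genes measured, 9 rose with Myh7 and none fell, with a median slope of 0.52 against 0.00 over all genes. The called ones also included the light chain Myl3 (1.07), the slow calcium pump Atp2a2 (0.60), the Z-disc protein Myoz2 (0.45) and the M-band protein Myom3 (0.28). These last were named outside the naming rule, to complete the called genes of the list. No gene of the lists for fast fibres, glycolysis, fibre type regulators, myosin assembly or regeneration was called with Myh7 in limma; at an unadjusted p under 0.05 the numbers were 0 of 16, 2 of 15, 6 of 26, 1 of 14 and 1 of 18, beside 5.34% of all genes. From the oxidative metabolism list 1 of 15 was called, Ldhb, the heart-type lactate dehydrogenase subunit (0.25 ± 0.051, adjusted p = 0.00273). Other called genes were Idh2, a mitochondrial isocitrate dehydrogenase (0.24), the smoothelin-like Smtnl1 (0.22), the scaffold Homer2 (0.23) and the LIM protein Pdlim1 (0.29), which were chosen after their values were seen. The gene that fell was Arf3, an ADP-ribosylation factor, by 0.11.

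Cardiac myosin Myh6, the chromosomal neighbour of Myh7, followed it closely. Its slope on Myh7 was 1.5 ± 0.090 (adjusted p = 2.5e-26), with r = 0.865, around a mean log2 level of 2.92. The coding sequences of the pair were 91.7% identical, and 29.1% of the 31-base words of Myh6 also occur in Myh7. The part of shared reads in this slope was not tested. Myh7b, on chromosome 2, shares 0.167% of its 31-base words with Myh6 and the 7 members, and it also rose with Myh7 (0.42 ± 0.086, adjusted p = 0.00359) and with Myh2 (0.33 ± 0.090, adjusted p = 0.0177).

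Myh2, the IIA chain, was followed by the whole slow fibre list together with oxidative metabolism. With Myh2, 391 genes rose (2.91% of 13440) and 316 fell (2.35%). All 14 slow fibre genes rose, with a median slope of 0.50 against 0.00 for all genes. The light chains Myl3 (0.87 ± 0.126, adjusted p = 9.7e-07) and Myl2 (0.83 ± 0.122, adjusted p = 1.38e-06) were steepest among genes that are not members, followed by Tnnt1 (0.74), Myh6 (0.71) and Tnnc1 (0.69). The members Myh8 and Myh7 had slopes of 0.99 and 0.75 on Myh2. Myl3 was also the gene most like Myh2 over the animals (rho = 0.649), ahead of Abhd18 and of the sodium pump subunit Atp1b1 (both 0.629). Of 15 oxidative metabolism genes, 8 rose and none fell, among them Ldhb (0.30), Mb, the oxygen store myoglobin (0.23), the lipoprotein lipase Lpl (0.18) and the acyl-CoA dehydrogenase Acadl (0.16). In the fast fibre list 7 of 16 fell and none rose. The calcium buffer Pvalb fell by 0.12 ± 0.022 (adjusted p = 0.000114), and the fast calcium pump Atp2a1 and the fast troponin Tnnc2 each fell by 0.08. Without the 2 animals farthest from the median of Myh2, 3 fast fibre genes fell. Of 15 glycolysis genes 3 fell, among them the glycogen phosphorylase Pygm by 0.07 and the phosphoglucomutase Pgm1 by 0.08, and the glycogen synthase Gys1 rose by 0.08; without the same 2 animals, 1 glycolysis gene fell.

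Of 26 regulators of fibre type 6 rose with Myh2 and 1 fell. Without the 2 animals farthest from the median of Myh2, 4 rose and none fell. The orphan receptors Esrrb (0.31 ± 0.046, adjusted p = 2.08e-06) and Esrrg (0.20 ± 0.039, adjusted p = 0.000306), which drive oxidative gene programmes, were among those that rose, as were the cofactor Vgll2 (0.17) and Eya3, a partner of homeobox factors (0.10). No marker of adipocytes, macrophages, endothelium, fibroblasts, Schwann cells, blood or smooth muscle was called in limma with Myh7, Myh2 or Myh1; of the 54 markers, 1, 4 and 10 had an unadjusted p under 0.05, beside 5.34%, 20.3% and 17.6% of all genes. Steep falls with Myh2 were seen for Gm48512 (-0.34), 1700109H08Rik (-0.27) and the replication factor Gins2 (-0.27), all low in level.

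Myh1, the IIX chain, was followed by most of the oxidative metabolism list and by a smaller part of the slow sarcomere. With Myh1, 534 genes were called, of which 188 fell (1.40% of those tested) and the rest rose (2.57%). Of 15 oxidative metabolism genes 13 rose and none fell. Mb rose by 0.30 ± 0.036 (adjusted p = 3.87e-09), Acadl by 0.20 ± 0.028 (adjusted p = 2.18e-07), the heart-type fatty acid binding protein Fabp3 by 0.21 and the carnitine transferase Cpt1b by 0.10. The genes most like Myh1 over the animals were Tmem65 (rho = 0.657), the mitochondrial creatine kinase Ckmt2 (rho = 0.623) and Acadl (rho = 0.617). Of the slow fibre list 5 of 14 rose, with a median slope of 0.32: Myoz2 (0.36), Myom3 (0.34), the calsequestrin Casq2 (0.32) and the leiomodin Lmod2 (0.27) were among them, whereas the slow troponins were not called. Esrrb (0.30), Esrrg (0.21) and Vgll2 (0.14) rose with Myh1 too, and Mybpc1, the slow-type myosin binding protein C, rose by 0.20. In the fast fibre list 6 of 16 fell, among them Pvalb by 0.12, Tpm1 and Tnnc2 by 0.10 each and Tnnt3 by 0.06. The ketone-body enzyme Bdh1 (0.44) and the transcript BC048679 (0.48) rose most steeply, and the protease Htra4 fell most steeply (-0.49). Whether the responses to Myh1 and Myh2 differ for any gene was not tested, and both lists come from the same animals.

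Myh4, the IIB chain, had the largest number of called genes among the 7, with slow fibre genes falling and fast fibre and glycolysis genes rising. With Myh4, 1560 genes rose (11.6%) and 1307 fell (9.72%). Of 14 slow fibre genes 13 fell and none rose, with a median slope of -0.42. Myom3 fell by 0.43 ± 0.061 (adjusted p = 1.55e-07), Casq2 by 0.41 ± 0.072 (adjusted p = 1.02e-05), Csrp3, a LIM protein of the Z-disc, by 0.54 and Tnni1 by 0.64. Of 16 fast fibre genes 9 rose and none fell. The fast myosin binding protein C, Mybpc2, rose by 0.15 ± 0.017 (adjusted p = 1.29e-10), the myosin light chain kinase Mylk2 by 0.16, the fast alpha-actinin Actn3 by 0.11 and Tpm1 by 0.10, while the Z-disc alpha-actinin Actn2 fell by 0.29 ± 0.038 (adjusted p = 2.4e-08). Of 15 glycolysis and glycogen genes 8 rose and none fell, among them the phosphorylase kinase subunit Phka1 (0.14) and Pygm (0.08). Of 15 oxidative metabolism genes 7 fell, including Fabp3 by 0.22 and Ldhb by 0.21. The calcium release channel Ryr1 was among the 3 genes most like Myh4 (rho = 0.677), after Gatad2b (0.702) and Rabep1 (0.680).

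Of 26 fibre type regulators 10 rose with Myh4 and 2 fell. Sox6, a repressor of slow genes, rose by 0.13 ± 0.023 (adjusted p = 9.92e-06), and Mef2d and Mef2a by 0.09 and 0.10. Of 14 genes of myosin assembly 5 rose, among them the giant sarcomere protein Ttn (0.08), and Mybpc1 fell by 0.21. Genes of developing or regenerating muscle went the other way: 11 of 18 fell and none rose, among them the troponin Tnnt2 (-0.46), the embryonic light chain Myl4 (-0.45), Igf2 (-0.35) and H19 (-0.34). The steepest falls included genes known from macrophages, Gpnmb (-0.54) and Ctss (-0.52).

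Most macrophage and fibroblast markers fell with Myh4, while nearly all markers of the other non-muscle cells were not called. Of 8 macrophage markers 7 fell, Lyz2 by 0.37 ± 0.061 (adjusted p = 2.84e-06 in limma) and Cd68 by 0.38. Of 8 fibroblast markers 5 fell, Col1a1 by 0.22. None of 10 adipocyte, 8 endothelial, 7 Schwann and 6 smooth muscle markers was called, and 1 of 7 blood markers fell. In all, 13 of 54 non-muscle markers fell and none rose, beside 9.72% of all genes falling and 11.6% rising. With scores of 7 non-muscle cell types as covariates, 1828 genes were called with Myh4 in place of 2867, of which 1545 were among the first. In that fit 11 of 14 slow fibre genes, 9 of 18 regeneration genes, 2 macrophage markers and 0 fibroblast markers fell, and 3 of 16 fast fibre, 5 of 15 glycolysis and 2 of 14 myosin assembly genes rose. The macrophage and fibroblast markers are themselves part of the covariates there. Without the 2 animals farthest from the median of Myh4, 2464 genes were called, 1993 of them as before; 11 slow fibre genes fell, 4 fast fibre, 3 glycolysis and 3 myosin assembly genes rose, and 7 regeneration, 6 macrophage and 2 fibroblast genes fell. Myh4 is itself a large part of every library, and the part of that in the slopes was not tested.

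**Figure D4:**
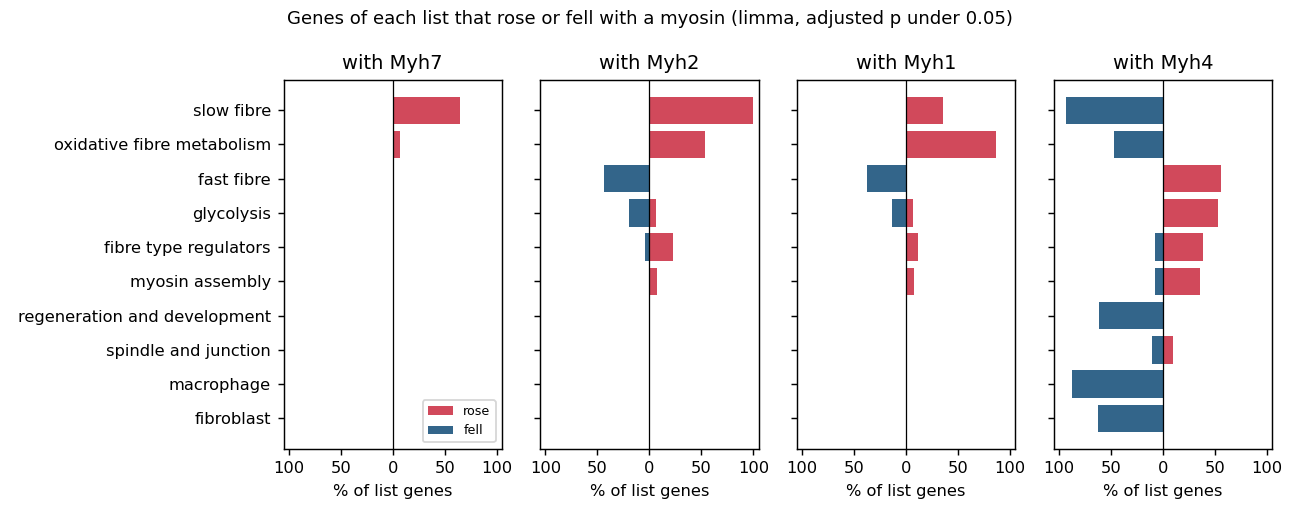
Percent of the measured genes of 10 lists that rose (red, to the right) or fell (blue, to the left) with Myh7, Myh2, Myh1 and Myh4 at an adjusted p under 0.05 in limma. The slow fibre bar points right for Myh7 (9 of 14), Myh2 (14 of 14) and Myh1 (5 of 14) and left for Myh4 (13 of 14).

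Over all animals, the developmental chains and Myh13 were followed by few genes, although all 3 vary more than the adult fast chains. For Myh3 the number depended on the fit, at 3 genes over all animals, 54 with normal scores of Myh3 and 153 (1.14%) within the 81 animals below its gap. With Myh3, 1 gene rose (0.00744%) and 2 fell (0.0149%). With Myh8, 2 rose (0.0149%) and 4 fell (0.0298%). With Myh13, 4 rose (0.0298%) and 9 fell (0.0670%). At an unadjusted p under 0.05 the numbers were 1241, 833 and 940 of 13440 (9.23%, 6.20% and 6.99%). None of the 18 measured genes of muscle regeneration and development was called in limma with any of the 3, nor was any of the slow or fast fibre genes. At an unadjusted p under 0.05 the regeneration list held 5 genes for Myh3, 2 for Myh8 and 0 for Myh13, and the slow fibre list 1, 5 and 3 of 14. Median slopes of the regeneration list were 0.10 on Myh3, 0.04 on Myh8 and 0.06 on Myh13, with 16, 14 and 17 of 18 slopes above 0.

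Most genes called with Myh13 lie on the same chromosome. Of the 13 called, 1 has no place in the annotation and 1 is the member Myh8; the remaining 11 all lie on chromosome 11, which holds 8.14% of the placed genes tested. Of these, 9 start within 20 Mb of Myh8, a window that holds 43.7% of the tested genes of the chromosome. With normal scores of Myh13 in place of its level, which gives the 10 high animals less weight, 3 genes were called: the member Myh8, and Cops3 and Zswim7. The long non-coding RNA 2610507I01Rik, 8.08 Mb before Myh8, rose by 0.91 ± 0.104 (adjusted p = 1e-09), from -1.60 in its lowest animal through a median of -0.26 to 3.98. The organic cation exporter Slc47a1, 5.93 Mb before it, fell by 0.34 ± 0.056 (adjusted p = 0.000199). Cops3, a signalosome subunit, fell by 0.08 ± 0.014, the DNA repair gene Zswim7 by 0.12 ± 0.023, and 2410006H16Rik rose by 0.24 ± 0.045. The carboxypeptidase Cpd, 9.50 Mb after Myh8, fell by 0.13 ± 0.027. The farthest were Lgalsl and Gm12059, 46.45 and 44.21 Mb before Myh8. The slope on Myh13 largely contrasts the 10 high animals with the rest. Among the 82 animals below the gap, none of these 11 genes was called. Slopes there are per SD of Myh13 among those animals, which was 0.66 against 2.68 over all, so their size cannot be compared directly. They were 0.00 for 2610507I01Rik, -0.10 for Slc47a1, -0.13 for 2310065F04Rik and -0.09 for Zswim7. There 5 genes in all were called (0.0372%), 1 of them, the member Myh8, also called over all animals. The RNAs 2610507I01Rik and Gm12059, Cops3 and, below, Bmp3 and Gm57403 were named after their values were seen.

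Of the 5 genes called with Myh8 that are not members, 2 lie on this chromosome. Slc43a2, an amino acid transporter 8.25 Mb after Myh8, rose by 0.24 ± 0.043 (adjusted p = 0.00259), and the ribosomal gene Rpl26, 1.62 Mb after it, fell by 0.12 ± 0.025 (adjusted p = 0.0178). Sema7a, Twist1 and Trappc5, on other chromosomes, fell by 0.26, 0.24 and 0.10. Slc43a2 was also the gene most like Myh8 over the animals (rho = 0.506), and among the 3 most like Myh3 (rho = 0.480) and Myh13 (rho = 0.356). In limma it was not called with Myh3 (adjusted p = 0.498) or with Myh13 (adjusted p = 0.0611), and rho over all animals includes both sides of each gap. Within the 73 animals above the Myh8 gap, none of these 5 genes was called, with slopes (per SD of Myh8 among them, 0.71 against 1.90 over all) of 0.17 for Slc43a2, -0.06 for Rpl26 and Sema7a, -0.09 for Twist1 and -0.05 for Trappc5. There 11 genes were called (0.0818%), of which 1, the member Myh2, had been called before. For Myh3, Aig1 rose by 0.24 ± 0.044 (adjusted p = 0.00531), Bmp3, a bone morphogenetic protein, fell by 0.37 ± 0.076, and the cluster RNA described next fell. Within the 81 animals below the Myh3 gap, 1 of the 153 genes had been called before; Aig1 and Bmp3 were not called there, at slopes of 0.09 and -0.24 per SD of 0.51, against an SD of 1.34 over all.

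**Figure D5:**
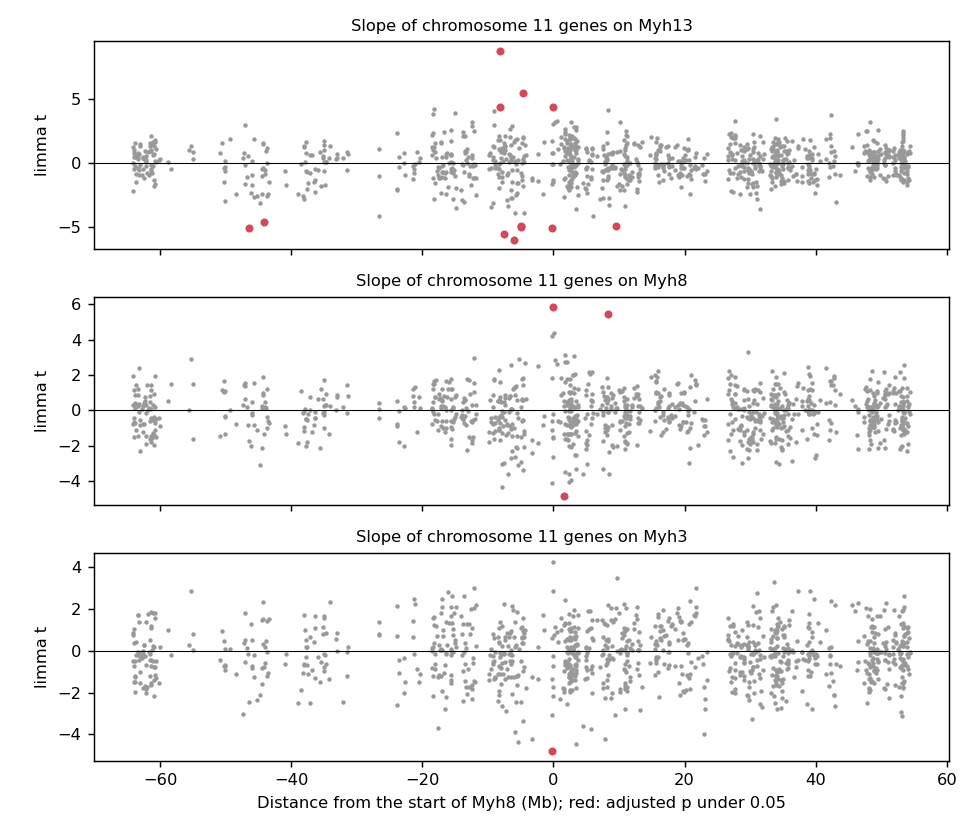
Moderated t of each chromosome 11 gene for its slope on Myh13, Myh8 and Myh3 (vertical axes) against its distance in Mb from the start of Myh8 (horizontal axis); red points have an adjusted p under 0.05. Red points for Myh13 gather mostly within 20 Mb of the cluster, with the pair near -46.45 and -44.21 Mb as the exceptions.

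Several non-coding RNAs of the cluster were called with its myosins, and for 2310065F04Rik and 9430073C21Rik the sign differed between myosins. The long non-coding RNA 2310065F04Rik, between Myh3 and Myh2, lay between 4.77 and 8.36 with a median of 7.20. It rose with Myh4 (0.28 ± 0.058, adjusted p = 0.000125) and fell with Myh3 (-0.28 ± 0.058, adjusted p = 0.0287) and Myh13 (-0.29 ± 0.057, adjusted p = 0.00386). Among the animals below each gap it was still called in limma with Myh3 (adjusted p = 0.0499) but not with Myh13 (adjusted p = 0.999). There r was -0.367 with Myh3 and -0.23 with Myh13. With Myh8 the slope was -0.24 ± 0.059 and missed the threshold (adjusted p = 0.111), and r was -0.424 within the 73 animals above the gap. Myhas, an antisense RNA of the cluster, fell with Myh4 (-0.39 ± 0.080, adjusted p = 0.00013) and with Myh2 (-0.26 ± 0.086, adjusted p = 0.0498), and had r = -0.570 with Myh8 in those 73 animals. The antisense RNA 9430073C21Rik, over the end of Myh2, rose with Myh1 (0.39 ± 0.078, adjusted p = 0.00049) and fell with Myh4 (-0.41 ± 0.077, adjusted p = 3.44e-05). Whether counting used the strand is not given in the sources used here, so reads of an antisense RNA and of the myosin it overlaps may not have been separated. Of the protein-coding neighbours, Sco1 rose with Myh1 (0.09 ± 0.027, adjusted p = 0.0251), and Adprm and Tmem220 were called with none of the 7.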

How the data were processed

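RNA of quadriceps muscle from 92 mice was measured by sequencing, and all animals formed 1 group. The deposited table holds log2 values; 2 raised to each value summed to 898071 to 1140761 per sample (median 1006085), so the authors' log2 values are close to a per-million scale, although no header states it. The submitters' processing notes name bcl2fastq, MultiQC, kallisto 0.50.1, edgeR and build mm10, without their roles; the depth of each library is unknown, so precision is given only by the spread between animals. Of 13456 lines, 15 repeats were removed, which left 13441 genes, 13255 of them placed in GENCODE M21; no value column was left over.

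Slopes per SD of a myosin were fitted with limma 3.58.1 (R 4.3.3; empirical Bayes with a mean-variance trend, Benjamini-Hochberg adjustment over 13440 genes, adjusted p under 0.05), and the script was tested on simulated data. The design had provided for counts or log2 values. Named genes were, per myosin, the up to 5 steepest rising and falling called genes whose mean was 1 or more, the 3 most and 2 least similar by Spearman's rho, up to 4 genes per list by adjusted p, and cluster neighbours; others are marked. Members and lists were chosen with earlier results of these data known. Coding sequences came from GENCODE M21 transcripts and promoters from RefSeq GRCm38.p6. Alternatives were log2(value + 1), a minimum mean of 1, normal scores, cell type scores or title runs as covariates, other lengths, leaving out the 2 farthest animals, and, added after seeing the data, fits on the larger side of each gap.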

Additional observations from a re-analysis of the deposited data

How the results depend on the processing

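Counts of genes called with Myh7, Myh2 and Myh1 stayed within 1.5 times under each alternative run (21 to 30 genes for Myh7 and 530 to 771 for Myh2). For Myh4, cell type scores as covariates gave 1828 genes against 2867. For Myh3, against 3 genes, cell type scores gave 0 in limma (839 at an unadjusted p under 0.05), normal scores 54 and the 81 animals below the gap 153. For Myh8, against 6, normal scores gave 19, the 73 animals above the gap 11, and leaving out the 2 farthest animals 2. For Myh13, against 13, normal scores gave 3 and the 82 animals below the gap 5. The median share of Myh8 was 0.346% without division by length and 0.339% with the longest coding transcript. Of the 21 correlations between members, 16 had the other sign in at least 1 run, among them Myh7 with Myh13 (-0.0384), Myh2 with Myh1 (-0.039), Myh1 with Myh4 (0.273), Myh3 with Myh8 (-0.632), Myh7 with Myh4 (0.093), Myh2 with Myh4 (0.0775) and Myh8 with Myh13 (-0.0778). Slopes on Myh13 turned below its gap for 2410006H16Rik (-0.041), Cpd (0.016), Mrpl55 (-0.037) and Gm57403 (0.01), and that of 2610507I01Rik went from 0.91 to 0.00. Slopes below the gap are per SD of a narrower range of Myh13 (0.66 against 2.68), so sizes cannot be compared directly. Why these slopes changed was not tested. Of 145 called slopes of named genes, 5 lost their call with the title runs as covariate, 12 with normal scores, 23 with cell type scores and 27 without the 2 farthest animals. On the larger side of a gap, 1 of 14 kept its call, 10 lost it and 3 turned. Depth is unknown, so the lowest values, such as Myh7 and Myh13 near 1, have no counting interval. No paired analysis was possible because there is 1 group.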

Other observations

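For some marker lists most slopes on a member had 1 sign, although no gene passed the threshold. With Myh1, all 10 adipocyte markers had slopes below 0, with a median of -0.17, none was called in limma, and 5 had an unadjusted p under 0.05, as did 17.6% of all genes. With Myh7, 6 of 7 blood markers had slopes below 0, with a median of -0.15; none was called and 1 had an unadjusted p under 0.05, as did 5.34% of all genes. With Myh3, none of the 8 endothelial and none of the 6 smooth muscle markers had a slope above 0, with medians of -0.07 and -0.10; none was called, and 6 and 4 had an unadjusted p under 0.05, as did 9.23% of all genes. With Myh13, all 8 macrophage markers had slopes above 0, with a median of 0.06, and none had an unadjusted p under 0.05, beside 6.99% of all genes. Genes of a list vary together, and blood markers alone spanned 0.0172% to 2.55% of expression.

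Myh7b, a myosin with low RNA levels here (mean log2 level 0.75), had r = 0.453 with Myh13 within the 82 animals below the Myh13 gap (rho = 0.518) and r = 0.450 with Myh7 over 92 animals. Of the 6 other myosin heavy chains measured, the non-muscle chain Myh10 fell with Myh4 (-0.19 ± 0.043, adjusted p = 0.00066 in limma). Among the genes least like Myh4 over the animals was the ribosomal protein gene Rpl3 (rho = -0.597, slope -0.20 ± 0.027).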
